A study of Mus musculus with 2 samples.

Results

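The open regions described here lie in gene deserts, more than 100 kb from any annotated transcription start site (TSS) and outside every annotated gene. They were taken from the peaks of DNase-seq, which maps sites that the nuclease DNase I cuts because the chromatin there is open. Of 38180 peaks on chromosomes 1 to 19 that both libraries shared, 242 met this rule, which is 0.634%. A peak was shared when a replicate 2 peak was overlapped by a replicate 1 peak by at least 1 bp, and its centre was placed against GENCODE M21 on assembly mm10. The members were selected on measured values, namely where peaks were called in both libraries. Peak number, signal and overlap between libraries are therefore given as descriptions.

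The tissue was adrenal gland, taken at an age of 4 days from females of the strain B6CASTF1/J. B6CASTF1/J animals are first-generation hybrids, every mouse carries both parental genomes, and alleles were not separated. The libraries are labelled biological replicates 1 and 2 of 1 group, so there was no second condition and no test between groups. The labels mention 3 females per sample and give both samples the same donor identifier, and the pooling of tissue is not stated in either label. Values are printed per library, and intervals are exact binomial 95% intervals that cover counting error only, since regions of 1 tissue are not replicates.

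The longer peak list of each library held 46031 peaks in replicate 1 and 87387 in replicate 2. Read depth was not stated in the labels or file headers. As a check of the labelled tissue, shared peaks were counted within 1 kb of the TSSs of marker genes. Such a peak was found for 9 of 15 steroidogenesis genes, 11 of 15 cortex identity genes, 8 of 16 chromaffin genes, 2 of 7 Schwann and neural crest genes, 5 of 10 endothelial genes, 5 of 9 capsule and fibroblast genes, 1 of 8 leukocyte genes, 2 of 7 kidney genes and 0 of 5 liver genes. Over all protein-coding genes of these chromosomes the share was 61.5%, so the counts of the adrenal lists do not set them apart from other genes. Cyp11a1, which makes pregnenolone from cholesterol, and Nr5a1, the nuclear receptor that specifies steroid-making cells, had one. Star, Cyp21a1 and Cyp11b1 of the cortex and Th, Dbh and Pnmt of the medulla had none by this rule.

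Gene deserts are long stretches of the genome without genes, and many of them border genes that control development. Open regions inside them can be enhancers, which act on promoters over long distances, or sites of the zinc-finger protein CTCF. CTCF binds a long motif and, with cohesin, anchors chromatin loops and domain borders, often in the same places in many tissues. A footprint is a short run of bases inside an open region that DNase I cuts less than its surroundings, as happens where a protein covers the DNA.

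The sequences of a few regions show what the results rest on. All are the plus strand of the GRCm38.p6 reference, the build of mm10, which is a C57BL/6J sequence. First are 5 of the 6 regions with the highest mean deposited signal among those whose exact CTCF motif lay under a footprint in both libraries. Capitals mark the CTCF consensus, on the plus strand in the regions beside Prickle1 and Unc5d and on the minus strand in the other 3.
Prickle1 to Adamts20 gap, chr15:94265761-94265920: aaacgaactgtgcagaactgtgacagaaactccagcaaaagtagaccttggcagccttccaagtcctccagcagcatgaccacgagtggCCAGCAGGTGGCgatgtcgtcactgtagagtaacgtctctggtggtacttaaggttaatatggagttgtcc
Npvf to Nfe2l3 gap, chr6:51168141-51168320: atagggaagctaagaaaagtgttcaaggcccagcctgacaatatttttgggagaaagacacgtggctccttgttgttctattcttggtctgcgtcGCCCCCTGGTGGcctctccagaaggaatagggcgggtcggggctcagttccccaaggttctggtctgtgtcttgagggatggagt
Gfra2 to Gm9195 gap, chr14:72372021-72372200: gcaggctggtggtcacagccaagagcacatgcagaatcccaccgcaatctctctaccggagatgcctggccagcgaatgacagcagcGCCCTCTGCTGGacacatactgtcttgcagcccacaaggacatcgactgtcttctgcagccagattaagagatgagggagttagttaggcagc
Unc5d to Dusp26 gap, chr8:30840221-30840400: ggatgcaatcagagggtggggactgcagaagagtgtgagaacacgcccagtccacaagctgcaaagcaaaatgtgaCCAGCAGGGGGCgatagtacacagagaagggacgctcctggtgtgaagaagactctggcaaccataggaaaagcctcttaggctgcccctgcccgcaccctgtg
Spaca1 to Akirin2 gap, chr4:34231401-34231580: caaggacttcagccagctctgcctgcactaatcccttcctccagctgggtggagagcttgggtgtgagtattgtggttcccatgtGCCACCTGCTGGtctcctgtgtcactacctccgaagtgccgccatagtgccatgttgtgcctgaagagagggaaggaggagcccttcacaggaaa

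The 3rd, 4th and 5th strongest desert regions follow, because they lead the set in signal among regions with no 32-base word that occurs elsewhere in the reference. None holds an exact CTCF consensus. In the region between Plekhb2 and Hs6st1 and in that between Slc10a2 and Efnb2, capitals mark a CTCF consensus with 1 mismatch, and the region between Eif4g2 and Galnt18 has neither form.
Eif4g2 to Galnt18 gap, chr7:111249781-111249940: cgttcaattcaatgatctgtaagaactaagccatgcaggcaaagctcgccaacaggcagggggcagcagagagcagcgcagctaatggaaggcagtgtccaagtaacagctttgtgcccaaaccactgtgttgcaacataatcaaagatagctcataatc
Plekhb2 to Hs6st1 gap, chr1:35385501-35385660: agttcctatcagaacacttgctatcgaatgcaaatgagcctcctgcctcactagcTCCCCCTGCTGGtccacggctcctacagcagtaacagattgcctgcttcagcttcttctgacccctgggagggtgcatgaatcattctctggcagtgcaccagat
Slc10a2 to Efnb2 gap, chr8:6572421-6572580: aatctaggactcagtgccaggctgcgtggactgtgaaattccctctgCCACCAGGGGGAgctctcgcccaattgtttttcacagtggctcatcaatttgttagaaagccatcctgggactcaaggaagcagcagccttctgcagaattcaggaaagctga

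The next regions border genes of the adrenal cortex, the chromaffin cells and the neural crest, namely Shh, Gata3 and Sox2. None of these genes had a shared peak within 1 kb of a TSS. Capitals again mark a CTCF consensus with 1 mismatch where there is one.
Shh to Rnf32 gap, chr5:29036741-29036940: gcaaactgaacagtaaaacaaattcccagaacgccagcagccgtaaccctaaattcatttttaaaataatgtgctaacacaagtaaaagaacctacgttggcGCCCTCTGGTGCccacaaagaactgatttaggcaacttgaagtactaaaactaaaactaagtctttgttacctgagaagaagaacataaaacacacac
Shh to Rnf32 gap, chr5:28955121-28955320: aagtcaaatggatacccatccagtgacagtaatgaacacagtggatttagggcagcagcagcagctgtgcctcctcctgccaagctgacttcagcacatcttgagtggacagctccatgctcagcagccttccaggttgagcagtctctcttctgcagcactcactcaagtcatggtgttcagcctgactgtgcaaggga
Celf2 to Gata3 gap, chr2:8754281-8754400: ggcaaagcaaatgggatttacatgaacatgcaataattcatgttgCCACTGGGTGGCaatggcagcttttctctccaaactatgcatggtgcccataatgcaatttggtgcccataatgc
Sox2 to Atp11b gap, chr3:35103361-35103500: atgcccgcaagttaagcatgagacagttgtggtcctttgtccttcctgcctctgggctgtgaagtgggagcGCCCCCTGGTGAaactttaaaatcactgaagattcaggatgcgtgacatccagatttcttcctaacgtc

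Of the 7 regions with the NR5A motif CAAGGTCA, read on both strands, 3 hold it inside the called region, and they are shown with that motif in capitals. NR5A1 is the nuclear receptor named above, and the motif is also one that related orphan receptors bind.
Ttc32 to Osr1 gap, chr12:9251861-9252060: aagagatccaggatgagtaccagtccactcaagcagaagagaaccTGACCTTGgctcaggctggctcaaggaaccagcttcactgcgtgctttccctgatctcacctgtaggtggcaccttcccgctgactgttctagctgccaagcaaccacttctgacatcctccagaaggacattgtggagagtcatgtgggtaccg
Nox3 to Arid1b gap, chr17:4498107-4498300: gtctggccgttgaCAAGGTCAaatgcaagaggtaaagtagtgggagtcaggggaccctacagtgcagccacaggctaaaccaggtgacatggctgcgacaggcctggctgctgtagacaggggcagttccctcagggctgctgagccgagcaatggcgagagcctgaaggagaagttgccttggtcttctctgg
Tmem18 to Alkal2 gap, chr12:30767741-30767920: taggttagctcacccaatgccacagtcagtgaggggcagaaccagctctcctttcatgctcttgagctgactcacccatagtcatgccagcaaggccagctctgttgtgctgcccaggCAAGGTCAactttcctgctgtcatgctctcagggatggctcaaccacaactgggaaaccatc

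Gene-desert sequence held few shared open regions for its length. The 242 regions lay on 166 Mb of eligible sequence, or 1.46 regions per Mb. Shared peaks that were intergenic but 1 to 100 kb from a TSS, called nearer intergenic peaks here, numbered 7617 at 7.37 per Mb. Inside genes and over 1 kb from a TSS there were 8847 at 8.46 per Mb, and within 1 kb of a TSS there were 21474 at 143 per Mb. Eligible desert made up 6.94% of the sequence of these chromosomes.

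The density fell with distance in every step that was measured. It was 1.86 per Mb at 100 to 150 kb, 1.10 at 150 to 200 kb, 1.05 at 200 to 300 kb and 0.828 beyond 300 kb. Closer to genes the nearer intergenic peaks had 11.1 per Mb at 1 to 10 kb, 8.15 at 10 to 25 kb, 5.31 at 25 to 50 kb and 3.07 at 50 to 100 kb. The bins beside the limit, 50 to 100 kb and 100 to 150 kb, are too wide to show whether density breaks at 100 kb. The 3 members just inside the limit lay 100032, 100195 and 100214 bp from a TSS, and the 3 intergenic peaks just outside it lay at 99290, 99570 and 99838 bp. Their signals were 0.870, 0.657 and 0.478 in replicate 1 for the members and 0.546, 0.827 and 0.554 for the peaks outside. In replicate 2 the members had 1.60, 0.836 and 1.03, and the peaks outside had 1.95, 1.15 and 1.64.

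**Figure D1:**
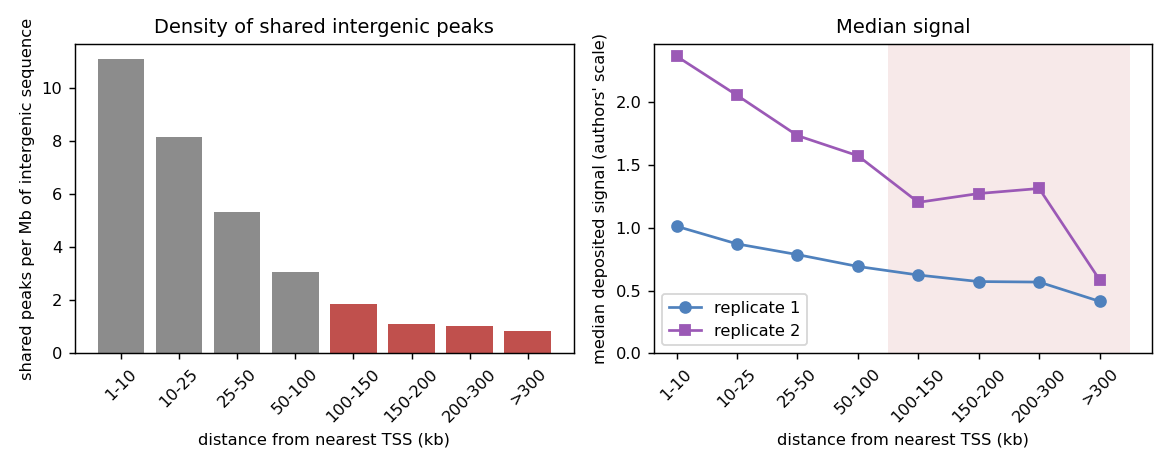
Left, shared intergenic peaks per Mb of intergenic sequence (y axis) against distance from the nearest TSS in kb (x axis), with gene-desert bins in red and nearer bins in grey. Right, the median deposited signal of the same peaks in replicate 1 and replicate 2 on the authors' scale, with the desert bins shaded. Density steps down from 11.1 per Mb at 1 to 10 kb to 0.828 per Mb beyond 300 kb.

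Desert regions were weaker than shared peaks elsewhere. Their median deposited signal was 0.597 in replicate 1 (range 0.264 to 7.14) and 1.22 in replicate 2 (range 0.343 to 12.7). Nearer intergenic peaks had medians of 0.895 and 2.08, genic peaks 0.870 and 1.93, and promoter peaks 1.40 and 2.64, in replicate 1 and replicate 2. The signal is the authors' own value per peak, with a scaling that no label or header states, so the 2 libraries are set side by side only as deposited. When all shared peaks were cut into tertiles of the mean of both signals, at 1.22 and 2.41, 69.0% of desert regions fell in the weakest tertile, against 37.7% of nearer intergenic peaks. Only 14 desert regions, or 5.79%, were in the strongest tertile, against 23.1%.

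The 2 libraries gave the desert regions signals of much the same ratio as elsewhere. Replicate 2 over replicate 1 had a median of 2.06 in desert regions, against 2.27 in nearer intergenic peaks. Replicate 1 was equal or higher in 5 of 242 desert regions, 2.07%, against 3.87% of all shared peaks and 2.56% of nearer intergenic peaks. Desert regions were a little narrower, with a median of 160 bp against 180 bp, and had a median GC content of 51.5% against 53.8%. The lowest deposited false discovery rate in a region had a median of 0.000982 in replicate 1 and 4.18e-06 in replicate 2, against 0.000267 and 1.61e-08 in nearer intergenic peaks. The stricter peak list of replicate 1 held 107 desert regions, 44.2%, where 67.1% of all shared peaks were on it and 55.2% of nearer intergenic peaks. The stricter list of replicate 2 held 175, 72.3%, where 84.9% of all shared peaks and 84.5% of nearer intergenic peaks were on it. Both lists held 99, 40.9%, where 64.3% of all shared peaks and 53.0% of nearer intergenic peaks were on both.

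The spread of the 242 regions was wide at the top and narrow below. A pair of regions on chromosome 1 had the highest signals in both libraries, far above the rest in replicate 1 and by less in replicate 2. The one between Ddx18, an RNA helicase, and Dpp10, which modifies potassium channels, had signals of 7.14 in replicate 1 and 12.7 in replicate 2. The one between Cntnap5b and Cdh20, which encodes a cadherin, had 6.39 and 9.06. Of the 32-base words in these regions, 20.9% in the first and 58.4% in the second occur elsewhere in the reference, and no label or header states how reads in copied sequence were placed. Whether copies have a part in these signals was not tested. In all, 18 desert regions held any copied word, 7.44%, against 7.22% of all shared peaks and 9.79% of nearer intergenic peaks. Regions copied at 50% or more numbered 3, 1.24%, against 1.14% and 2.34% in the same order. Of those 3, the region beside Luzp2 was one of the 5 regions in which replicate 1 was higher, at 0.819 in replicate 1 and 0.493 in replicate 2.

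The regions described next held no copied words. Next in rank was the region between Eif4g2, a translation initiation factor, and Galnt18, which starts O-glycosylation, with 2.06 in replicate 1 and 7.09 in replicate 2. The region between Plekhb2 and Hs6st1, a heparan sulfate sulfotransferase, had 1.56 and 6.22. That between Slc10a2, a bile acid transporter, and Efnb2, an ephrin ligand, had 1.28 and 6.22. The region between Chd7, a chromatin remodeller, and Clvs1 had 1.48 and 5.84. Beside Bmper, a BMP-binding protein, and Bbs9, of the ciliary BBSome, the values were 1.71 and 4.62. The region between Podxl, a sialomucin, and 1700012A03Rik had 1.94 and 4.06. Of the 10 strongest regions 1 held an exact CTCF motif, the one between Prickle1 and Adamts20 with 2.02 and 4.21. All 10 were on the stricter lists of both libraries and had a footprint in both.

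**Figure D2:**
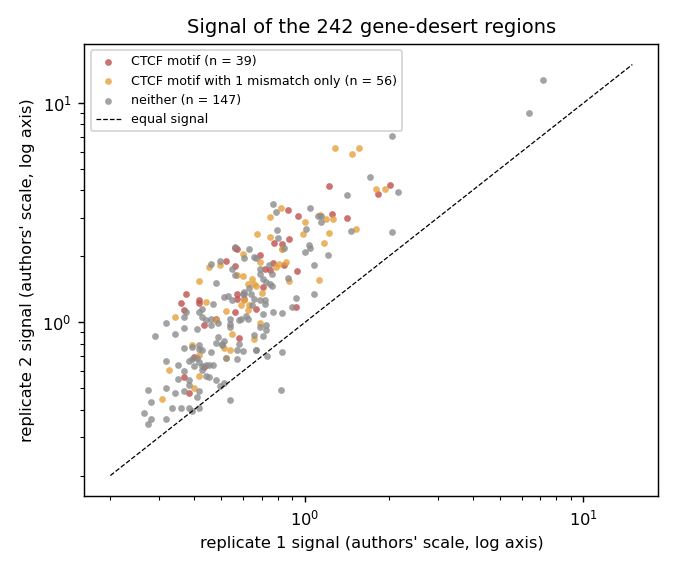
Deposited signal of each of the 242 gene-desert regions in replicate 1 (x axis) and replicate 2 (y axis), both on log axes of the authors' scale. Colour gives the CTCF consensus in the 200 bp window, exact for 39 regions, with 1 mismatch only for 56 and neither for 147, and the dashed line marks equal signal. The 2 chromosome 1 regions stand apart at the upper right, and 5 regions lie on or below the line.

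Being far from genes went with being seen in 1 library only. Of 1634 desert peaks in replicate 2, 14.8% were overlapped by a replicate 1 peak, against 34.2% of nearer intergenic peaks and 45.2% of all peaks. Of 448 desert peaks in replicate 1, 53.8% were overlapped by a replicate 2 peak, against 80.3% of nearer intergenic peaks and 84.2% of all peaks. Desert peaks of replicate 2 were also weaker. Of the replicate 2 desert peaks, 81.4% were in the weakest tertile of that library, against 43.4% of nearer intergenic peaks. Within the weakest tertile 3.68% of desert peaks and 4.39% of nearer intergenic peaks were overlapped, where 6.65% of all peaks were. Within the middle tertile the values were 50%, 31.7% and 38.1%, and within the strongest 91.8%, 87.6% and 90.6%, in the same order. The interval of the desert share held the nearer intergenic share in the weakest tertile (2.74 to 4.84%) and the strongest (84.5 to 96.4%), and lay above it in the middle one, where it began at 43.0%. Replicate 1 differed from this. In the weakest tertile of its own peaks 44.0% of desert peaks (38.9 to 49.3%) were overlapped. The share was 57.9% of nearer intergenic peaks and 59.4% of all peaks. In the middle tertile the shares were 98.4%, 97.1% and 93.2%, and in the strongest 100%, 99.8% and 99.3%, in the same order.

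An exact CTCF motif lay in the 200 bp window of 39 of 242 desert regions, 16.1% (95% interval 11.7 to 21.4%), where the share over all shared peaks was 9.17%. Nearer intergenic peaks had 19.2% (18.3 to 20.1%), genic peaks 17.2% and promoter peaks 2.22%. The desert share was therefore above the share over all peaks, which promoters dominate, and its interval included the shares of nearer intergenic and genic peaks. In windows of the same length 2 kb to either side of the desert regions, clear of peaks, 0 of 477 held the motif (0 to 0.770%). With 1 mismatch allowed the count was 95 regions, 39.3%, against 24.2% of all shared peaks and 1.26% of the flanking windows. Nearer intergenic peaks had 45.5% and genic peaks 42.8%. A match is a string in the reference, not a measured site.

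The CTCF share was lowest among weak regions, in deserts as nearer to genes. In the weakest tertile it was 12.6% of desert regions (7.96 to 18.6%) against 9.68% of nearer intergenic peaks. In the middle tertile it was 24.6% (14.5 to 37.3%) against 22.7%, and in the strongest 21.4% (4.66 to 50.8%, 3 of 14 regions) against 28.5%. The intervals of desert regions held the nearer intergenic share in each tertile. Regions with the exact motif had median signals of 0.606 in replicate 1 and 1.72 in replicate 2, and regions with no form of it had 0.546 and 1.02. Distance within the deserts showed 14% at 100 to 150 kb, 11.6% at 150 to 200 kb, 31.2% (10 of 32, 16.1 to 50%) at 200 to 300 kb and 20% (2 of 10) beyond 300 kb.

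**Figure D3:**
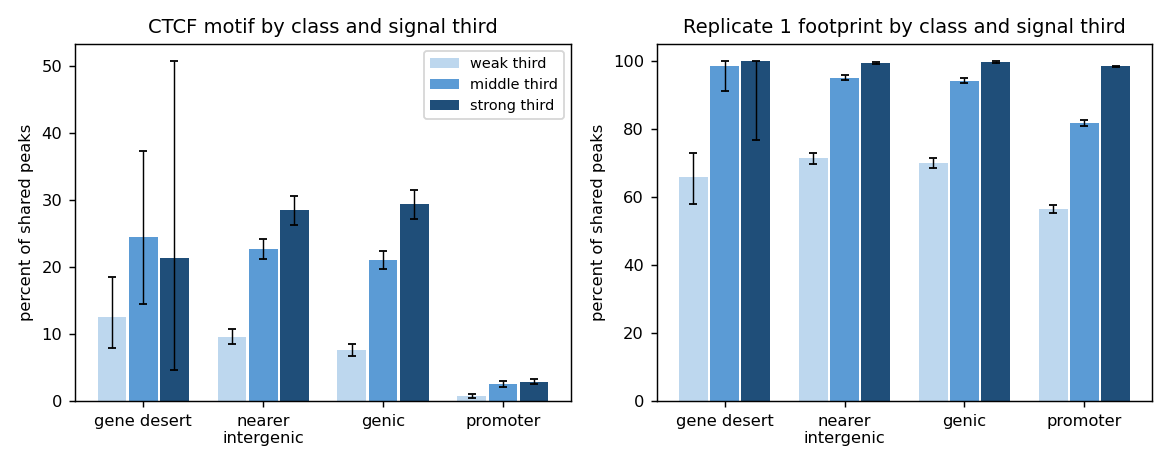
Share of shared peaks with an exact CTCF motif (left, percent) and with a footprint in replicate 1 (right, percent), by class of peak on the x axis and by weak, middle and strong tertile of mean signal in shades of blue. Error bars are exact binomial 95% intervals. In gene deserts the footprint share is 65.9% in the weak tertile, 98.4% in the middle and 100% in the strong.

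Footprints were deposited for each library as a list of positions without a score. In replicate 1, 184 desert regions, 76.0% (70.1 to 81.3%), overlapped a footprint, where 83.7% of all shared peaks did and 87.2% of nearer intergenic peaks. In replicate 2 there were 214, 88.4% (83.7 to 92.2%), where 88.1% of all shared peaks did and 94.1% of nearer intergenic peaks. Regions without a footprint in either library numbered 12, or 4.96%, against 6.50% of all shared peaks and 2.84% of nearer intergenic peaks. In the weakest tertile 65.9% of desert regions had a replicate 1 footprint, against 71.4% of nearer intergenic peaks. In the middle tertile the shares were 98.4% and 95.1%, and in the strongest 100% and 99.5%. Footprints come from the same reads as the peaks, and both measures move with signal.

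CTCF motifs in the deserts mostly lay under footprints. The exact motif was inside 38 regions, 18 times on the plus strand and 20 times on the minus strand, at a median of 13 bp from the region's centre. A footprint overlapped it in 28 of 38 in replicate 1, 73.7% (56.9 to 86.6%), and in 36 of 38 in replicate 2, 94.7% (82.3 to 99.4%). For motifs in nearer intergenic peaks these shares were 90.2% and 97.2%. Footprints covered 60.1% of the desert motif bases in replicate 1 and 85.1% in replicate 2, but 8.03% and 14% of the other bases of the same regions. The replicate 1 share was thus lower in deserts than in nearer intergenic peaks, with an interval that did not include 90.2%. Desert regions were also weaker, and the part of signal in this difference was not tested.

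**Figure D4:**
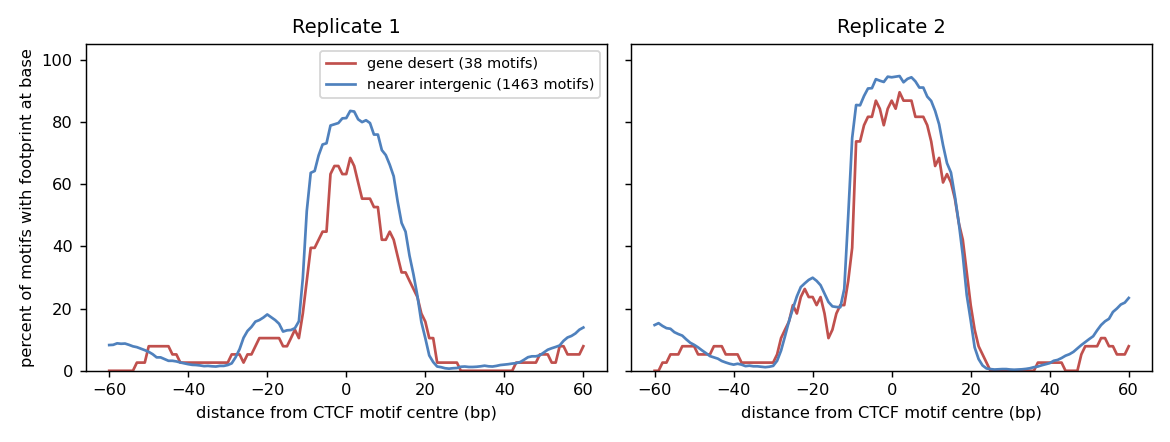
Percent of CTCF motifs with a deposited footprint at each base (y axis) against distance from the motif centre in bp (x axis), for 38 motifs in gene-desert regions (red) and 1463 in nearer intergenic peaks (blue), in replicate 1 (left) and replicate 2 (right). Coverage peaks over the motif in both libraries, and the desert curve runs below the nearer intergenic curve across it, by more in replicate 1.

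The 5 regions printed first carry these sites. Between Prickle1, of the planar cell polarity pathway, and Adamts20, a metalloprotease, signals were 2.02 in replicate 1 and 4.21 in replicate 2. Between Npvf, a neuropeptide precursor, and Nfe2l3, a transcription factor, they were 1.83 and 3.87. Between Gfra2, the neurturin receptor, and Gm9195 they were 1.22 and 4.18. Between Unc5d, a netrin receptor, and Dusp26, a phosphatase, they were 1.25 and 3.12, and between Spaca1 and Akirin2 they were 0.870 and 3.24. All 5 exceeded the upper quartile of desert regions, 0.785 in replicate 1 and 1.91 in replicate 2. They were chosen for high mean signal, so this says nothing of desert regions with CTCF motifs in general. The region between Dcc and Mex3c on chromosome 18, with 1.42 and 2.99, ranked between the third and the fourth of them.

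Other motifs were searched as plain strings on both strands in the same windows. AP-1 (TGANTCA) was in 28 desert regions, 11.6% (7.83 to 16.3%), against 9.23% of nearer intergenic peaks, 5.80% of all shared peaks and 5.45% of the flanking windows of deserts. The NFI string TTGGCA was in 46, 19% (14.3 to 24.5%), against 14.1% of nearer intergenic peaks, 10.7% of all shared peaks and 12.6% of flanking windows. The E-box CAGCTG was in 42, 17.4%, against 17.2%, 14.2% and 9.01% in the same order. NR5A was in 7, 2.89% (1.17 to 5.87%), against 2.05%, 1.43% and 0.839%. TEAD (CATTCCA) was in 13, 5.37% (2.89 to 9.01%), against 3.14%, 2.29% and 4.61%.

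Strings typical of promoters were rare. The GC-rich SP string GGGGCGGG was in 2 desert regions, 0.826% (0.100 to 2.95%). It was in 4.33% of nearer intergenic peaks, 15.1% of all shared peaks and 0.419% of flanking windows. The cAMP response element TGACGTCA was in 0 of 242 (0 to 1.51%), against 0.512% of nearer intergenic peaks, 1.49% of all shared peaks and 0 of 477 flanking windows. ETS (CCGGAAGT) was in 2 desert regions, 0.826% (0.100 to 2.95%), against 0.446%, 2.78% and 0.210% in the same order.

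For the SOX, GATA, TEAD, SP, ETS and cAMP response element strings, the interval of the desert regions held the share of the flanking windows. The SOX string ACAATGG was in 9 desert regions, 3.72% (1.71 to 6.94%), against 1.98% of nearer intergenic peaks, 1.55% of all shared peaks and 3.14% of flanking windows.

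The GATA string AGATAAG was in 6 desert regions, 2.48% (0.915 to 5.32%), against 1.89% of nearer intergenic peaks, 1.19% of all shared peaks and 2.94% of flanking windows. Of the 6, 1 lay beside Gata6.

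The homeobox string TAATTA was in 7 desert regions, 2.89% (1.17 to 5.87%), against 2.40% of nearer intergenic peaks and 1.28% of all shared peaks. Of the flanking windows of deserts 8.39% held it, so it was rarer in the open regions than beside them. This was not particular to deserts, since flanking windows had 4.80% for nearer intergenic peaks and 5.19% over all shared peaks. No string holds another, and a missing match says only that the letters are not in the window.

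Most desert regions had no other desert region within 50 kb. The median distance to the nearest other desert region was 979 kb, and to the nearest shared peak of any class it was 118 kb. The rule sets part of the latter, since members lie over 100 kb from any TSS and 56.2% of shared peaks within 1 kb of one. These distances are not given for other classes. Yet 58 regions, 24% (18.7 to 29.9%), had another within 50 kb, and they formed 24 clusters, of which 18 held 2 regions, 3 held 3 and 3 held 4 or more. Within 10 kb the count was 30 regions, 12.4%, and within 100 kb it was 68, 28.1%. On the stricter peak lists only 10.1% of 99 regions had another within 50 kb. The eligible sequence fell into 1329 separate deserts, and 193 of them, 14.5%, held a region. These 193 made up 23.9% of the eligible sequence. A single region lay in 160 deserts, 2 in 26, 3 in 3, 4 in 1, 5 in 1 and 6 in 2.

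The cluster with most members lay between Disc1, a scaffold protein of neurons, and Sipa1l2, a GTPase regulator, where 5 regions fell within 40.9 kb on chromosome 8. Their replicate 1 signals ran from 0.691 to 1.04 and their replicate 2 signals from 0.95 to 3.31. None held a CTCF motif, even with 1 mismatch. Of the 5, 3 lay within 1 kb of a TSS that RefSeq gives to Gm30713, so an annotation other than GENCODE M21 puts genes closer.

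Between Cdh26 and Cdh4, which both encode cadherins, 6 regions shared 1 desert of 361 kb on chromosome 2, and 4 of them formed a cluster of 90.3 kb. The 4 had replicate 1 signals of 0.947, 0.691, 0.793 and 0.844 and replicate 2 signals of 3.07, 1.27, 2.65 and 1.82, from left to right. Of the 4, 2 held an exact CTCF motif. Between Eef2kmt, a methyltransferase of a translation elongation factor, and Rbfox1, a splicing regulator, another 6 regions lay in a desert of 335 kb on chromosome 16. Of these, 3 stood within 5.98 kb, with replicate 1 signals of 0.657, 0.665 and 1.13 and replicate 2 signals of 1.49, 1.15 and 3.10, and all 3 held a CTCF motif with at most 1 mismatch.

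Between Dcc, a netrin receptor, and Mex3c, an RNA-binding protein, 4 regions lay in 61.0 kb on chromosome 18, with replicate 1 signals from 0.512 to 1.42 and replicate 2 signals from 0.818 to 3.03. Of the 4, 3 held a CTCF motif with at most 1 mismatch. Beside Ajap1, an adherens junction protein, 3 regions in 75.4 kb had 1.21, 0.546 and 0.691 in replicate 1 and 2.03, 1.27 and 1.76 in replicate 2, and none held it. Tied with the last of these in number were 3 regions in 1.34 kb between Cd47, a surface protein that inhibits phagocytosis, and Bbx, an HMG-box protein. They had 0.750, 0.665 and 0.657 in replicate 1 and 1.5, 0.748 and 0.836 in replicate 2, and 1 held a CTCF motif with 1 mismatch. The clusters therefore differed in CTCF content.

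Large deserts held few regions for their length. The 50 largest made up 31.5 Mb and held 24 regions, 0.762 per Mb, and 30 of the 50 held none. The largest was the desert between Dsel and Cntnap5a, of 1056 kb with 0 regions. By chromosome, the density ran from 3.05 per Mb on chromosome 7 (14 regions) to 0.317 on chromosome 14 (3 regions). Chromosome 19 had 0 regions in 3.14 Mb, which allows up to 0.955 per Mb when a count of 0 is taken to allow up to 3. This limit is not one of the binomial intervals.

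**Figure D5:**
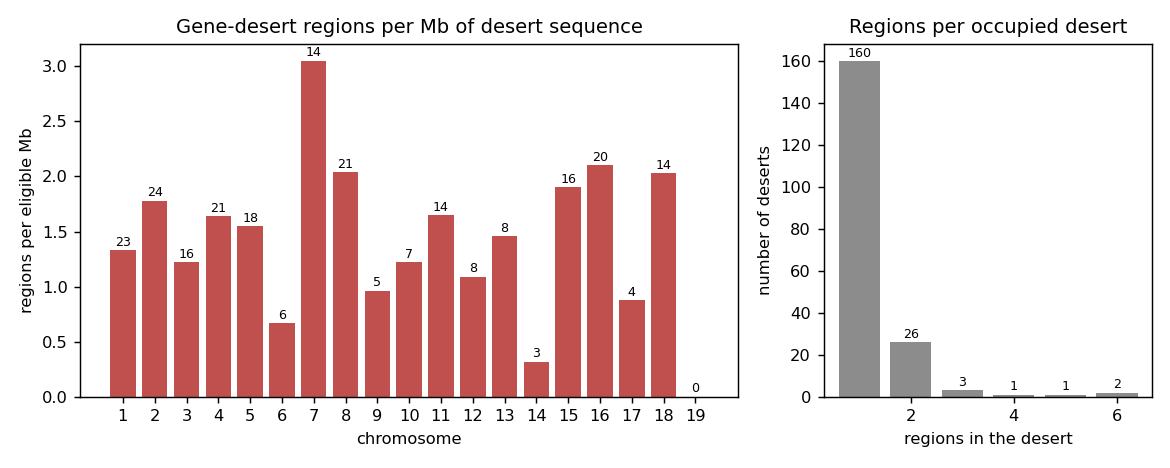
Left, gene-desert regions per Mb of eligible desert sequence (y axis) by chromosome (x axis), with the number of regions above each bar. Right, number of deserts (y axis) by the number of regions they hold (x axis), among the 193 deserts with a region. Chromosome 7 is highest at 3.05 per Mb, and 160 deserts hold a single region.

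The genes on either side were taken as the nearest protein-coding TSS on each flank. A flank is a position and assigns no target. Together 329 protein-coding genes flanked the 242 regions. The nearest protein-coding TSS was 238 kb away at the median, with a range of 101 to 2195 kb, and in 51 regions it was over 500 kb away. The TSS nearest of all was that of a protein-coding gene for 58 regions, of a processed pseudogene for 61 and of a lincRNA for 56.

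Genes of steroid synthesis flanked no desert. None of 15 such genes bordered eligible sequence, so they could border no region. Of the cortex identity genes, 7 of 15 flanked a desert, and 2 of them flanked 5 regions, at 2.44 per Mb on 2.05 Mb of desert, where deserts as a whole had 1.46 per Mb. These were 2.07% of regions (0.674 to 4.76%) on 1.23% of eligible sequence, so the interval held the share of sequence. Gata6, a transcription factor of the fetal and adult cortex, flanked 3 of them on chromosome 18. Their signals were 1.08, 1.08 and 0.827 in replicate 1 and 1.83, 1.35 and 1.10 in replicate 2, and 2 of the 3 lay side by side, 293 kb from the Gata6 TSS. None held a CTCF motif.

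Shh, whose protein is secreted by progenitor cells under the adrenal capsule, flanked 2 regions. The one at chr5:29036741-29036940 had 0.418 in replicate 1 and 1.55 in replicate 2 and lay 570 kb from Shh and 159 kb from Rnf32. The one at chr5:28955121-28955320 had 0.512 and 1.30 and lay 488 kb from Shh. Gata3, a transcription factor of chromaffin cells, flanked 1 region, with 0.392 and 0.792, at a distance of 1119 kb. Sox2, a transcription factor of neural progenitor and glial cells, flanked 2 regions, with 0.597 and 1.62 in one and 0.478 and 0.545 in the other. Cdh19, a cadherin of Schwann cell precursors, flanked 1, with 0.281 and 0.361, which is near the floor of the set. Except for those beside Gata6, these 6 regions were at or below the desert median of 0.597 in replicate 1. In replicate 2, where the desert median was 1.22, both regions beside Shh and 1 of those beside Sox2 were above it, and the other 3 were below it. Shh, Gata3, Sox2 and Cdh19 themselves had no shared peak within 1 kb of a TSS, whereas Gata6 had 3. Genes of the endothelial, leukocyte, capsule and fibroblast, kidney and liver lists flanked 0 regions. They had little desert to flank, with 0.396 Mb for the endothelial, 0.0285 Mb for the leukocyte and 0.0732 Mb for the capsule and fibroblast genes, and none for kidney and liver genes.

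A pair of broader lists was set against the length of desert that their genes border. Developmental transcription factors flanked 26 regions, 10.7% (7.14 to 15.3%), and 8.35% of the eligible sequence, or 1.87 regions per Mb. Families of adhesion proteins and receptors, many but not all of them neuronal, flanked 38 regions, 15.7% (11.4 to 20.9%). They flanked 27.4% of the eligible sequence, or 0.835 regions per Mb, where deserts as a whole had 1.46. This list includes Cdh5, which is also on the endothelial list. The first interval includes the share of sequence and the second does not, and the families named in each list set what they cover. Among the transcription factors, Prox1 flanked 2 regions, with 1.17 in replicate 1 and 2.30 in replicate 2 at the one and 0.588 and 1.04 at the other. Sox6 also flanked 2, with 0.827 and 2.15 at the one and 1.12 and 1.56 at the other. Pou3f3 flanked 2, with 1.14 and 3.04 and with 0.580 and 0.800, and both held the AP-1 string.

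The 5 regions farthest from any TSS were weak, except for 1. The region between Man1a, a mannosidase, and Msl3l2 was 467 kb away, with 0.426 in replicate 1 and 0.607 in replicate 2. That between Bmp2, a secreted growth factor, and Hao1 was 445 kb away, with 0.631 and 2.15, and it was on the stricter lists of both libraries. Between Dnah5 and Ctnnd2, a catenin of neurons, the values were 0.367 and 0.563 at 392 kb. Between Igfbp7 and Adgrl3, a latrophilin receptor, they were 0.384 and 0.475 at 385 kb. Between Kif2b and Car10 they were 0.273 and 0.493 at 365 kb. The Ctnnd2 and Adgrl3 regions held an exact CTCF motif.

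What counts as a desert depends on the gene set. Set against RefSeq annotation of GRCm38.p6, 25 of 242 regions lay in a gene, of which 24 were lncRNA genes and 1 was a pseudogene, and 10 lay within 1 kb of a RefSeq TSS. By the same distance rule 115 regions, 47.5%, remained over 100 kb from any RefSeq TSS and outside genes. The region between Bbs9 and Bmper, for example, lay in Gm36743.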

How the data were processed

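DNase-seq of 2 adrenal gland libraries, replicate 1 and replicate 2 of 1 group, was used, grouped by the replicate number in the labels. The authors deposited 2 peak lists per library on mm10, called per library, with 1 signal value per peak, together with false discovery rates, which are adjusted p-values of the cut rate, and footprint lists. Every footprint carries the same deposited p-value threshold of 0.01, and the deposited false discovery rates are below 0.05. Tools, filters, read depth and signal scaling were not given in the sources used here. Thus the counting error behind a single peak is unknown. Coordinates are 1-based.

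From these files shared peaks were placed against GENCODE M21, classed as desert, nearer intergenic, genic or promoter (centre within 1 kb of a TSS), and scanned for motif strings in 200 bp windows. Peaks of any repeat content were kept, and 32-base words were counted over chromosomes 1 to 19, X, Y and the mitochondrial genome. The analysis used Python 3.11.15, numpy 2.4.6, pandas 2.3.3, scipy 1.17.1, numba 0.67.0 and matplotlib 3.10.9, and was tested on simulated data. No test was made, since there is 1 group. Regions named are the 10 strongest by mean signal, of which 1 is not reported here, the 5 farthest, the 5 largest clusters with 1 tied for the last place, the 3 to either side of the limit, 5 with CTCF footprints in both libraries, and those flanked by adrenal genes. Other regions, among them those of developmental transcription factors, were named after their values were seen. The members and lists were chosen with earlier results of these data known. The alternatives were other distance limits, gene sets, peak lists, overlaps, windows and cluster distances.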

Additional observations from a re-analysis of the deposited data

How the results depend on the processing

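Of 73 alternatives, 44 left the result within a set range and 29 moved it. The range was 1.5 times either way for the number of regions, the 95% interval for a share, and 0.439, the SD of the median signals of the 2 libraries, for a median signal. That SD is wide for replicate 1, whose median of 0.597 ran from 0.418 without replicate 2 to 0.827 on the stricter lists. The number of regions, 242, was 870 over 50 kb, 42 over 200 kb, 1885 with protein-coding genes only, 99 on the stricter lists and 160 with equal peak numbers. Leaving out 1 library gave 448 to 1634. The CTCF share, 16.1%, was 28.6% over 200 kb and 39.3% with 1 mismatch, and 3.30 to 8.71% with 1 library left out, which takes in peaks seen in 1 library. The footprint share of replicate 1, 76.0%, was 64.3% over 200 kb, 97% on the stricter lists, 84.2% at 50% reciprocal overlap, 86.9% with equal peak numbers and 56.2% without replicate 2. That of replicate 2, 88.4%, was 83.3% over 200 kb, 98.0% on the stricter lists, 83.0% with replicate 1 peaks as the base, 99.4% with equal peak numbers and 44.1% without replicate 1. The clustered share, 24%, was 36.4% over 50 kb, 44.1% with protein-coding genes only, 10.1% on the stricter lists, 12.4% within 10 kb and 27.2 to 58.1% with 1 library left out. The median signal of replicate 2, 1.22, was 2.15 on the stricter lists, 1.67 with equal peak numbers and 0.405 without replicate 1. The stricter lists and equal peak numbers keep stronger peaks by construction, and the cause of the other shifts was not tested. No paired analysis was possible because there is only 1 group. With read depth unstated, it is unknown how far depth limits the weak regions.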
